A study of Caenorhabditis elegans with 12 samples.

Results

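The 315 genes described here were far more abundant in germline-deficient *glp-4* animals than in *eri-1* animals on day 1 of adulthood. They were chosen by a rule on the deposited TPM table (a level per transcript length that is scaled to sum to 1000000 in every library). The rule kept a gene with a mean of at least 10 TPM over both *glp-4* day 1 libraries and with that mean, plus 0.5, at least 16 times the mean of the 3 *eri-1* libraries, plus 0.5. Of 19997 genes in the table, 6408 reached the level and 383 met both conditions. The rule then left out 68 genes by symbol, of which 61 were *col-* collagens, 3 were *clec-* and 4 were *irg-* genes, and no *cyp-*, *ugt-* or *gst-* gene had met the conditions. The difference between *glp-4* and *eri-1* animals on day 1 is therefore how the genes were selected, and it is given as a description with no test.

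The study sequenced mRNA of whole Caenorhabditis elegans animals to compare ages in the soma and to compare reduced insulin/IGF-like signalling with its control. The 12 libraries fall into 5 groups. The control (WT) is *eri-1(mg366)* on day 1 with 3 libraries, and *daf-2(e1370); eri-1(mg366)* animals, labelled as control RNAi, were taken on day 1 with 3 libraries. The *glp-4(bn2)* animals, which carry no *eri-1* allele in their label, were taken on day 1, day 3 and day 7 with 2 libraries each. The control here called WT thus carries the *eri-1* mutation, a loss of an exonuclease that makes worms more responsive to RNAi, and the *daf-2* allele reduces the insulin/IGF receptor. All animals were kept at 20 °C as adults on plates with 50 µM FUDR, which stops DNA synthesis and so keeps adults from having offspring, and at least 80 worms made a sample. The labels give 15 °C for the larval stages of every sample, whereas the methods of the study give 25 °C for *glp-4* larvae, the temperature at which this allele prevents germ cell production. The food of the WT and *glp-4* animals is not given in the labels. Strain background, larval temperature and presence of a germline go together in the comparison of *glp-4* with WT animals and cannot be told apart. In whole animals, fewer cells of a type and less RNA per cell cannot be told apart either. The labels number the libraries of a group without saying that they came from separate cultures, so p-values measure only the spread between these libraries.

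The worm's body is covered by a collagenous cuticle that the epidermis rebuilds at every larval molt. Collagens, hedgehog-related proteins, lipocalins, proteases and protease inhibitors of this apical extracellular matrix are transcribed in pulses that follow the molting cycle, and the pharynx builds a cuticle of its own from disordered, glutamine- and asparagine-rich proteins. Replication-dependent histone genes lie in clusters, are transcribed in dividing cells, and in animals usually give mRNAs that end in a stem-loop without a poly(A) tail. The *glp-4* animal is germline-deficient, so its RNA comes mostly from somatic cells.

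Total counts were 15925848 to 22484551 in WT, 13750913 to 19618500 in *daf-2*, 10407141 and 12836836 in *glp-4* day 1, 7889153 and 9037955 in day 3 and 4538353 and 5216982 in day 7 libraries, so low values are least certain at day 7. The labels were checked on marker genes. The summed level of 20 germline genes was 5197 to 5420 TPM in WT and 38.2 to 39.7 TPM in *glp-4* day 1 libraries, and then 112 to 125 TPM at day 3 and 325 to 335 TPM at day 7. None of the 20 germline genes is among the 315, nor is any gene of the sperm list, 9 muscle genes or 12 neuronal genes. The muscle list summed to 4203 to 4382 TPM in WT and to 10573 to 11770 TPM in *glp-4* day 1 libraries. The shift between these groups differed by list, as 12 neuronal genes summed to 429 to 439 TPM in WT and 571 to 595 TPM in *glp-4* day 1, and 7 genes of the excretory system to 135 to 146 and 125 to 154 TPM. A list of 11 somatic gonad and vulva genes was lower in *glp-4* day 1, with 489 to 493 TPM in WT and 185 to 196 TPM there. Of 13 epidermal markers 6 are among the 315, of 16 pharyngeal markers 4, and of 13 intestinal markers 1.

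Within the 315 genes, replicate libraries differed in 2 groups. Replicate 1 of *glp-4* day 1 exceeded replicate 2 in 263 genes, with a median ratio of 1.49. With 2 libraries, neither can be called the one that deviates, and the mean of both chose the genes. The number of genes that met the rule was 309 of the 315 with replicate 1 alone and 260 with replicate 2 alone. Replicate 2 of *daf-2* was at least 4-fold above the mean of the other *daf-2* libraries in 32 of the 315 genes. Neither count was taken over all genes, so both describe the 315 only. The first difference was seen in all genes of the collagen, hedgehog-related, molting and pharyngeal groups. The second concerned 11 of the 19 pharyngeal genes, but 2 of 15 collagens, 2 of 12 hedgehog-related and 0 of 18 molting genes. The plot of replicate libraries against each other shows them.

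**Figure D1:**
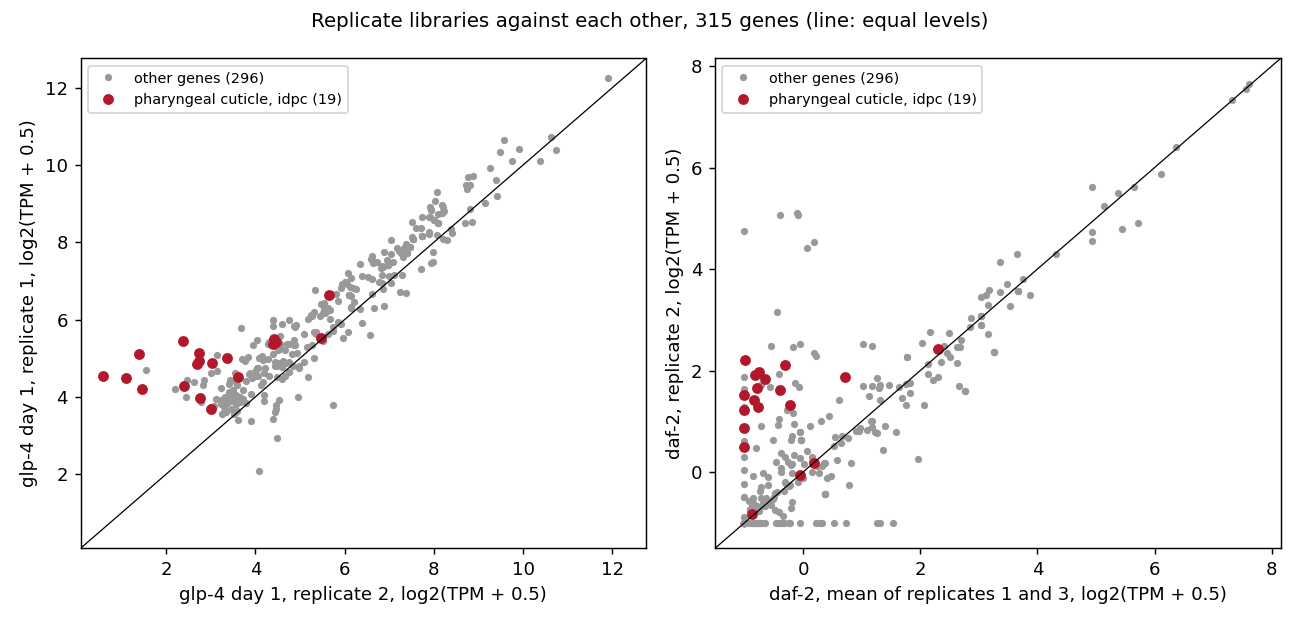
Each dot is 1 of the 315 genes, as log2(TPM + 0.5) in 2 replicate libraries of *glp-4* day 1 (left) or in *daf-2* replicate 2 against the mean of *daf-2* replicates 1 and 3 (right), and the line marks equal levels. The 19 genes of the pharyngeal cuticle group (red) all lie above the line on the left, and 16 of them are highest in *daf-2* replicate 2.

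In the WT libraries the 315 genes together made up 0.0733 to 0.0758% of all TPM. The share was 0.139 to 0.172% in *daf-2* animals. In *glp-4* animals it was 3.97 and 5.32% on day 1, 4.02 and 4.43% on day 3 and 6.45 and 6.69% on day 7. As a share of counts, which does not weight short transcripts, the values were 5.38 and 4.52% on day 1, 2.47% in both day 3 libraries and 2.80 and 2.72% on day 7. The share after day 1 thus was lower in counts and not in TPM. The median level of a gene was 0.26 TPM in WT, 0.64 TPM in *daf-2*, 44.9 TPM in *glp-4* day 1, 3.79 TPM in day 3 and 3.98 TPM in day 7 animals. Of the 315 genes, 131 had a mean of at least 10 TPM on day 3 and 126 on day 7, against 15 in WT and 27 in *daf-2* animals. The heat map of all genes shows that most of the genes were high in the *glp-4* day 1 libraries alone, while histones and many genes without an assigned name were high in all 6 *glp-4* libraries.

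**Figure D2:**
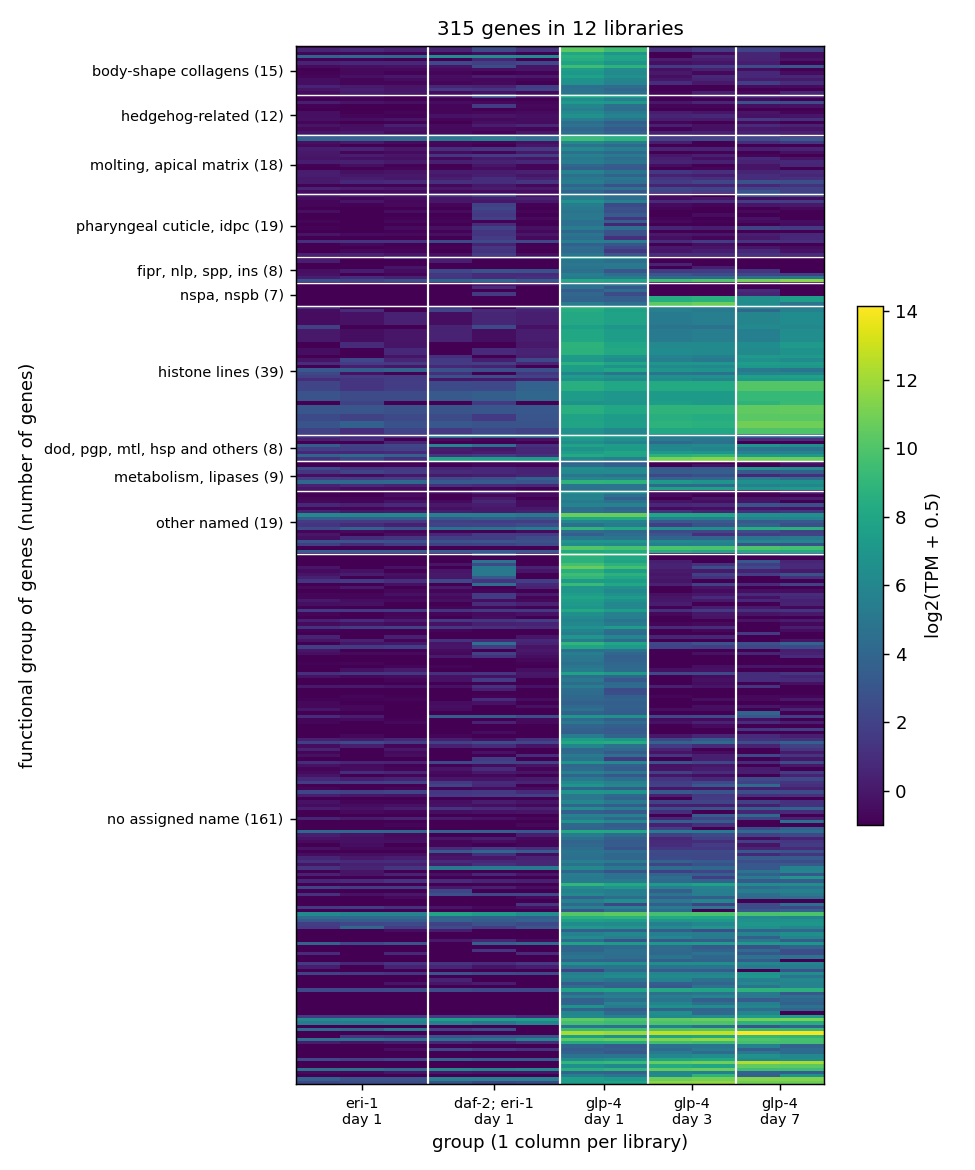
Levels of the 315 genes (rows, by functional group with the number of genes) in the 12 libraries (columns, by group), as log2(TPM + 0.5). Body-shape collagens, hedgehog-related, molting and pharyngeal genes are high in the *glp-4* day 1 columns, whereas the histone lines stay high in the day 3 and day 7 columns.

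The genes nearest the thresholds show how close the edges are. Just inside the ratio of 16 were *pqn-54* at 16.03, *F53A9.8* at 16.08 and *T06D8.10* at 16.15, and just outside were both lines of the histone gene *his-45* at 15.96, *C02F4.4* at 15.86 and the transcription factor gene *mxl-3* at 15.78. Just inside the level were *idpc-5*, *Y48A6C.8* and *abu-10* at 10, 10.05 and 10.11 TPM, and just outside were *Y47D7A.9*, *Y59A8A.8* and *T25E4.1* at 9.92, 9.90 and 9.87 TPM. The edge is thin in reads as well: 19 of the 315 genes had fewer than 20 counts over both *glp-4* day 1 libraries and 11 had fewer than 10. The ratio was also taken on the CPM scale (counts scaled to 1000000 per library, with no division by transcript length). A small constant was again added to both means. By this ratio 230 of the 315 were at least 16-fold and 270 at least 8-fold higher in *glp-4* day 1 than in WT animals. The constant caps the ratio of genes with few counts. *C05G5.7*, with 65 and 51 counts on *glp-4* day 1 and 0 in every WT library, reached only 11.2. The numbers therefore do not separate transcript length from low counts.

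The annotation of the genes is given as a description. Transcript length is not independent of the rule, since TPM divides by it. All 315 are annotated as protein-coding, a share that was not compared with the whole table, and 154 have an assigned gene name. Their median longest transcript was 659 bases, against 1154 bases for all annotated genes and 1361 bases for genes with at least 10 TPM on day 1. A transcript of under 300 bases was annotated for 48 of them, and only *anc-1* (25858 bases) and *ZC247.1* (13329 bases) were longer than 10 kb. Chromosome V held 97 of the 315 genes, or 30.8%, against 19.2% of all genes with at least 10 TPM on day 1. Of these 97, 22 were histone lines with 14 distinct count profiles. Chromosome II held 65, X held 59, IV held 44, I held 29 and III held 21. Of the 315, 96 started within 10 kb of another, and 13 runs had 3 or more such neighbours (coordinates on WBcel235, Ensembl release 115). The largest was a run of 12 histone lines at chrII:13817760-13827709. Runs of other kinds were *R12E2.15*, *R12E2.14*, *R12E2.6* and *R12E2.7* at chrI:4148832-4154452, *fipr-4*, *fipr-7*, *fipr-6* and *fipr-8* at chrV:10228043-10239961, *cld-1*, *dod-21* and *dod-24* at chrIV:12935011-12941354, *abu-15*, *abu-6* and *abu-7* at chrV:5158602-5164782, *idpc-5*, *idpc-4* and *idpc-3* at chrV:9622105-9629214, and *lpr-3*, *lpr-5* and *lpr-4* at chrX:11057401-11066811. A gene on the other strand overlapped 65 of the 315 and one on the same strand overlapped 7. The library kit does not mark strand, so reads of such overlapping partners cannot be separated, and among the genes named below this concerns *dpy-4*, *bli-1*, *bli-2*, *sdz-24*, *nspa-8*, *gfi-1*, *trx-3*, *idpc-1*, *idpc-3*, *pqn-32*, *abu-13*, *wrt-2*, *grl-15*, *acn-1*, *suro-1*, *dpy-8*, *fipr-3*, *osm-8*, *nspb-1*, *bus-5* and *bus-8B*.

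The comparison of day 7 with day 3 in *glp-4* animals used no library of the rule and is the one on which the genes were tested. Of the 315 genes, 297 passed the filter on low counts in the *glp-4* libraries. A gene may pass it through its high day 1 counts alone, and with the day 3 and day 7 libraries on their own 169 of the 315 passed. By the quasi-likelihood F-test of edgeR, with p-values adjusted (Benjamini-Hochberg) across the 13222 genes that passed, 43 of the 297 rose and 46 fell at an adjusted p under 0.05. Those are 14.5% and 15.5% of the genes tested, while 14.2% of all genes rose and 18.4% fell. Many of the 297 had almost no counts left at either age and could hardly be called. With the filter set on the day 3 and day 7 libraries alone, 51 of the 169 rose and 47 fell, or 30.2% and 27.8%, against 20.0% and 22.2% of all genes in that fit, so the comparison with other genes depends on which members are counted. The median log2 difference of the 297 was 0.14 against 0.01 for all genes. It was 0.09 with genes at 0 counts at one age set to their bound and the 14 at 0 counts at both ages left out. The scaling matters to this split, because the median of all genes lies at 0.01 with TMM scaling, 0.12 with upper-quartile scaling, 0.30 with limma on log2(TPM + 1) and 0.51 with library totals alone. With library totals 70 of the genes rose and 34 fell, and 84.4% of all calls were upward, against 43.5% with TMM. With limma on log2(TPM + 1) 63 rose and 40 fell, with 75.9% of all calls upward, and with upper-quartile scaling 48 rose and 42 fell, with 55.9% upward. All log2 differences and calls of edgeR below are relative to the TMM centre, whereas levels in TPM carry no TMM scaling. The plot of the differences by functional group shows that 21 of the 43 upward calls were histone lines. Of the 46 downward calls 7 were stress-response genes and 26 were genes without a name. The unnamed genes fell in 17.9% of the 145 tested, where 18.4% of all genes did. With the filter set on the day 3 and day 7 libraries alone, 15 of 72 unnamed genes rose and 27 fell, where 20.0% and 22.2% of all genes did.

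**Figure D3:**
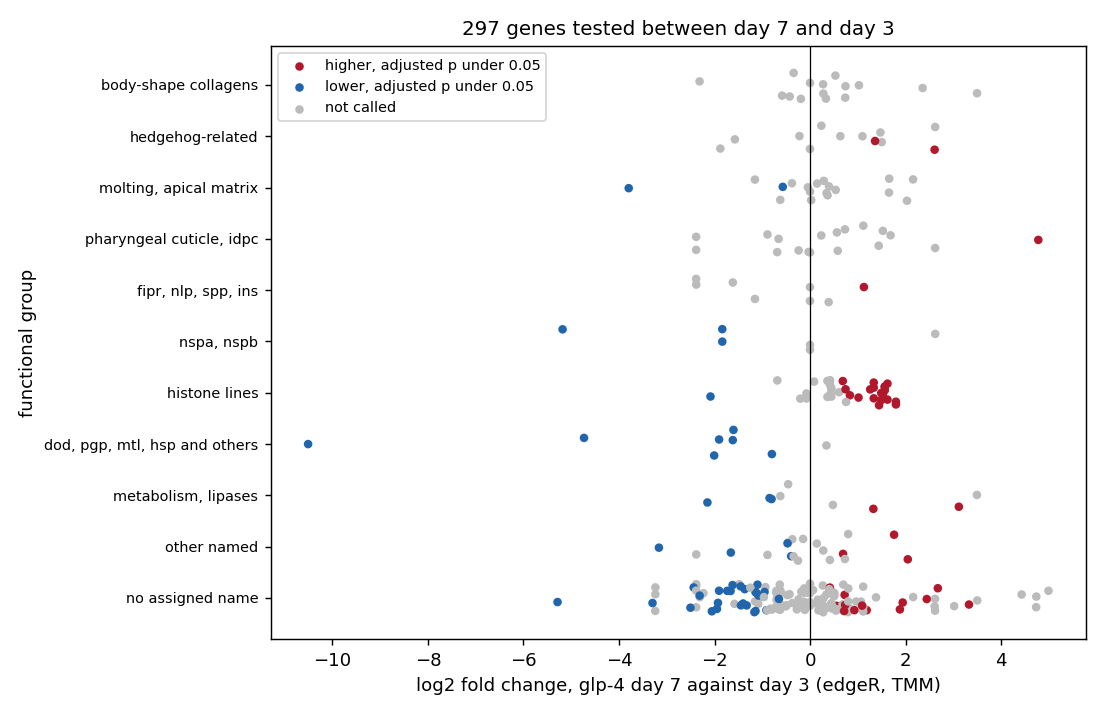
Log2 fold change between *glp-4* day 7 and day 3 (x axis, edgeR with TMM scaling) for the 297 genes tested, by functional group. The histone lines hold 21 of the 43 genes that rose (red), 7 of 8 genes of the stress group fell (blue), and grey dots far from 0 are genes with few or no counts at one age, whose fitted value is uncertain.

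Between day 1 and day 3 the values are a description, since the day 1 libraries chose the genes for being high. On TPM + 0.5, 198 of the 315 were at least 4-fold lower on day 3 than on day 1, 109 lay within 4-fold and 8 were at least 4-fold higher. For day 7 against the same day 1 libraries these numbers were 191, 103 and 21. By edgeR 229 of 297 genes were called lower on day 3, or 77.1% against 27.5% of all genes, and 30 were called higher, or 10.1% against 26.6% of all genes. Nothing is read from these shares, as a gene chosen for high day 1 values tends to be lower elsewhere. In the 198 genes of the first kind the median drop was 25.2-fold and the largest was that of *R12E2.15* with 977 and 613 TPM on day 1 and no count in either day 3 library. These 198 genes had a median transcript of 940 bases, and 63 of them were body-shape collagens, hedgehog-related, molting or pharyngeal genes. The 109 genes within 4-fold had a median transcript of 372 bases, and 24 of them were histone lines. Of the 48 genes with transcripts under 300 bases, 33 lay within 4-fold and 11 were at least 4-fold lower, whereas of the 90 genes with transcripts of 1200 bases or more, 18 lay within 4-fold and 71 were at least 4-fold lower.

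In *daf-2* animals against WT the values are again a description, since the WT libraries chose the genes for being low. Only 112 of the 315 passed the filter on low counts in these 6 libraries. By edgeR 40 of the 112 were called higher in *daf-2*, or 35.7% against 25.5% of all genes, and 19 were called lower, or 16.96% against 22.5% of all genes. The median log2 difference of the 112 was 0.51, against 0.00 for all genes. Without *daf-2* replicate 2 the counts were 40 and 18. With library totals in place of TMM, which moves the median of all genes to 0.13, the counts were 46 and 15, and 71.8% of all calls were upward instead of 53.2%. Over all 315 genes the median ratio of *daf-2* to WT on TPM + 0.5 was 1.17, and 1.02 without replicate 2.

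The first functional group is the 15 collagens of body shape and blistering, whose mutants are short (*dpy-*), long (*lon-*), rolling (*rol-* and *sqt-*) or blistered (*bli-*). The 15 summed to 4846 TPM in *glp-4* day 1 replicate 1 and to 2746 TPM in replicate 2. In *dpy-13*, a cuticle collagen needed for normal body length, the level was 0.141, 0.155 and 0.39 TPM in WT, 0.509, 4.4 and 0.816 TPM in *daf-2*, 838 and 471 TPM in *glp-4* day 1, 0.742 and 1.7 TPM in day 3 and 3.02 and 2.19 TPM in day 7 libraries. The day 1 libraries of *glp-4* lay above all other libraries by over 2 orders of magnitude, and the *daf-2* value of 4.4 TPM belonged to replicate 2. In *dpy-4* the *glp-4* levels were 1285 and 714 TPM on day 1, 1.6 and 2.72 TPM on day 3 and 3.7 and 3.23 TPM on day 7. In *rol-6*, mutants of which roll along their long axis, they were 134 and 70.4, then 0.527 and 0.137, then 1.12 and 0.195 TPM. All 15 collagens were at least 4-fold lower at both later ages than on day 1, from a group median of 149 TPM to 0.53 TPM on day 3 and 0.61 TPM on day 7. The 15 together had 72 and 108 counts in the day 3 libraries and 97 and 92 in the day 7 libraries, too few to show most differences between these ages, and edgeR called none. With the filter set on those 4 libraries 5 of the 15 could be tested and 1 was called higher. The collagen *bli-6* differed from the rest in WT animals, with 14.4, 17.7 and 17.1 TPM there and 86, 84.4 and 77.6 TPM in *daf-2* libraries. Its *glp-4* levels were 405 and 236 TPM on day 1, 0 and 1.07 TPM on day 3 and 0.997 and 0.217 TPM on day 7. The *daf-2* and WT libraries did not overlap in *bli-6*, and the log2 difference was 2.20 ± 0.10 (SE, n = 3 and 3). A like pattern at lower levels was seen in *rol-8*, with 0.937, 1.17 and 1.18 TPM in WT and 4.49, 3.17 and 4.4 TPM in *daf-2*. The highest *daf-2* value was not that of replicate 2 in either gene. Of 25 measured *dpy-* genes 6 met the rule, as did 3 of 4 *rol-*, 2 of 3 *sqt-* and 3 of 6 *bli-* genes.

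Hedgehog-related proteins of the worm (warthog, groundhog and ground-like, or *wrt-*, *grd-* and *grl-*) are secreted proteins of the apical matrix, and *ptr-4* encodes a patched-related membrane protein. The 12 genes of this group summed to 879 and 564 TPM in the *glp-4* day 1 libraries, and all 12 were higher in replicate 1. The most abundant was *grl-16* with 249 and 167 TPM on day 1, 0.079 and 0.408 TPM on day 3 and 1.21 and 0.667 TPM on day 7. Its WT levels were 0.0863, 0.191 and 0.0341 TPM, and *daf-2* replicates 1, 2 and 3 had 0.408, 5.24 and 0.514 TPM, so replicate 2 alone was 10 times or more above the other 2. All 12 genes were at least 4-fold lower at day 3 and day 7 than on day 1, with medians of 38.8, 0.38 and 0.41 TPM in order of age. Between day 3 and day 7, 2 of the 12 rose and none fell, where 14.2% and 18.4% of all genes did. With the filter set on those 4 libraries 4 of the 12 were tested, of which 2 were called higher and 1 lower. In *grl-21* the level was 0.494 and 1.03 TPM on day 3 and 6.23 and 5.79 TPM on day 7, on 2, 4, 15 and 16 counts. The ages did not overlap, and the log2 difference was 2.61 ± 0.45 (SE, n = 2 and 2, edgeR adjusted p = 0.00047). Even so the day 7 level was far below the 143 and 137 TPM of day 1. The other was *qua-1*, which encodes a hedgehog-related protein needed for molting, with 0.639 and 0.559 TPM on day 3 and 2.4 and 1.62 TPM on day 7 (log2 difference 1.36 ± 0.37, edgeR adjusted p = 0.012).

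The molting and apical matrix group has 18 genes, which summed to 1423 and 931 TPM in the *glp-4* day 1 libraries. All 18 were higher in replicate 1. In *lin-42*, the worm's homolog of the clock gene period that times the molts, the level was 3.86, 3.77 and 4.45 TPM in WT, 6.95, 5.05 and 4.41 TPM in *daf-2*, 206 and 132 TPM in *glp-4* day 1, 0.993 and 0.45 TPM in day 3 and 1.66 and 0.328 TPM in day 7 libraries. The 4 older *glp-4* libraries were below every WT and *daf-2* library, and the day 1 libraries above them all. In *mlt-11*, which encodes a protease inhibitor needed to complete molting, the levels were 0.673, 0.847 and 0.486 TPM in WT, 1.63, 2.17 and 2.35 TPM in *daf-2*, and 70.9 and 46.3 TPM in *glp-4* day 1 libraries. Its day 3 and day 7 levels lay between 0.724 and 0.933 TPM. In *acn-1*, an enzyme-like protein without protease activity that is needed for molting, the day 1 levels were 40 and 28.4 TPM and the later levels 0.75 to 1.09 TPM. These 3 genes thus had the same course in *glp-4* animals, while *mlt-11* alone of them was called higher in *daf-2*, by a log2 difference of 1.51 ± 0.19 (SE, n = 3 and 3). Of the 18 genes, 17 were at least 4-fold lower at both later ages. The exception was *bus-8B*, from the *bus-8* locus of surface glycosylation, with 13.1 and 7.97 TPM on day 1, 3.89 and 2.94 TPM on day 3 and 7.4 and 3.11 TPM on day 7, and it overlaps *bus-8A* on its own strand. Between day 3 and day 7 none rose and 2 were called lower, where 14.2% and 18.4% of all genes were. Neither call held with the filter set on the day 3 and day 7 libraries alone, where 9 of the 18 were tested and none was called. The lipocalin gene *lpr-3* went from 0.501 and 0.775 TPM to 0.107 and 0 TPM, on 20 counts against 1, which is 16.39-fold lower on TMM-scaled counts (95% exact counting interval 2.62 to 679) (edgeR adjusted p = 0.0062), and it entered the test through its day 1 counts only. In *suro-1*, a carboxypeptidase gene chosen after its values were seen, the levels were 4.48 and 3.66 TPM on day 3 and 3.57 and 3.46 TPM on day 7 (log2 difference -0.57 ± 0.21, edgeR adjusted p = 0.047). The size of the *suro-1* difference is near the shift of 0.51 that library totals give to all genes.

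A wider list of 52 molting-cycle genes puts these in context. Of the 52, 23 met the rule, and all 23 were called lower at day 3 than at day 1. Of the 51 genes of the whole list that could be tested, 42 were called lower and 5 higher by edgeR, where 27.5% of all genes were called lower. Between day 3 and day 7, 2 of the 51 rose and 5 fell, where 14.2% and 18.4% of all genes did. Of the 28 tested genes of the list that are outside the selection, 19 were called lower on day 3. The list itself was written with earlier results of these data known, so nothing is read from these counts. The summed level of the list was 1087 to 1107 TPM in WT, 1444 to 1548 TPM in *daf-2*, 3471 and 5587 TPM in the *glp-4* day 1 libraries, and 1182 to 1509 TPM in the later *glp-4* libraries.

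**Figure D4:**
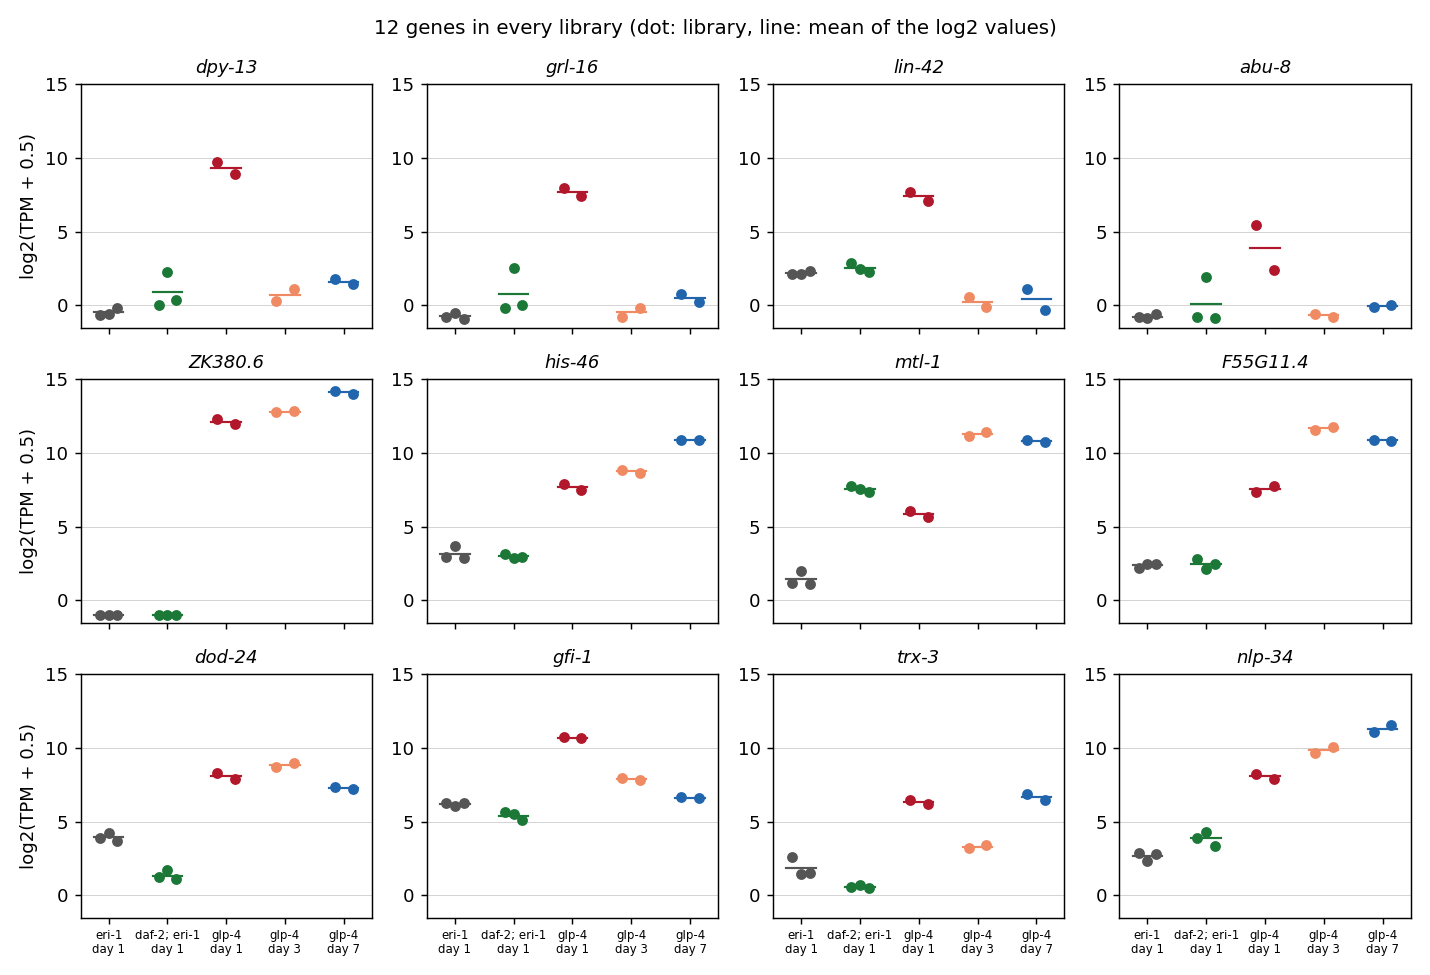
Levels of 12 genes in each of the 12 libraries as log2(TPM + 0.5), 1 dot a library, with a line at the mean of the log2 values of each group. The upper row drops after *glp-4* day 1, while *ZK380.6*, *his-46* and *nlp-34* are higher on day 7 than on day 3 and *mtl-1* and *F55G11.4* are highest on day 3.

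The pharyngeal cuticle group has 19 genes, 10 *abu-*, 5 *idpc-* and 4 *pqn-* genes. The *abu-* and *pqn-* proteins are rich in glutamine and asparagine, and the *idpc-* proteins are intrinsically disordered. This group differed most between replicates. It summed to 636 TPM in *glp-4* day 1 replicate 1 and to 234 TPM in replicate 2, with medians of 29.8 and 6.24 TPM and a median ratio of 3.82. All 19 met the rule with replicate 1 alone and 6 of 19 with replicate 2 alone, so the presence of most of them among the 315 rests on 1 library. In *abu-8* the level was 43.2 and 4.7 TPM on day 1, 0.177 and 0.0913 TPM on day 3 and 0.439 and 0.524 TPM on day 7. The same gene had 0.0848, 0.0468 and 0.159 TPM in WT and 0.0763, 3.29 and 0.0585 TPM in *daf-2* libraries, so *daf-2* replicate 2 again stood apart. In the sum of all 19 genes *daf-2* replicates 1, 2 and 3 had 8.78, 44.7 and 7.61 TPM, and replicate 2 was the highest in 16 of the 19. The median ratio of *daf-2* to WT in the group was 2.16, and 1.08 without replicate 2. An exception to the difference between replicates was *pqn-72*, with 45.8 and 44.1 TPM on day 1, 1.5 and 2.6 TPM on day 3 and 2.06 and 1.69 TPM on day 7. All 19 genes were at least 4-fold lower at both later ages than on day 1. Of the 18 tested between day 3 and day 7, 1 rose and none fell, where 14.2% and 18.4% of all genes did. Most of the 18 entered the test through their day 1 counts only. With the filter set on the day 3 and day 7 libraries alone 5 of the 19 could be tested, of which 2 were called higher and none lower. The gene that rose among the 18, *idpc-1*, had 0.27 and 0 TPM on day 3, on 2 counts, and 6.4 and 4.39 TPM on day 7, on 28 and 22 counts. That is 30.5-fold higher on TMM-scaled counts (95% exact counting interval 8.01 to 259) (edgeR adjusted p = 0.0012). Of 14 measured *abu-* genes 10 met the rule, as did 5 of 7 *idpc-* and 4 of 56 *pqn-* genes.

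Among the 161 genes without an assigned name, *daf-2* replicate 2 was above both others in 54, with a median ratio of 1.0, and at least 4-fold above their mean in 14. Of those, the following 3 are examples with high *glp-4* day 1 levels. In *C02E7.7* the *daf-2* levels were 0, 34 and 0.854 TPM and the *glp-4* day 1 levels 1587 and 756 TPM. In *F41F3.3* they were 0.527, 33.1 and 0 TPM against 716 and 421 TPM, and in *Y48G8AL.12* they were 0, 26.4 and 0 TPM against 405 and 211 TPM. Of the 32 genes at least 4-fold above the other *daf-2* libraries in replicate 2, 30 were among the 198 genes that were at least 4-fold lower on day 3 than on day 1 in *glp-4* animals. Those 198 genes summed to 376, 665 and 344 TPM in *daf-2* replicates 1, 2 and 3.

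Small secreted peptides made up 8 genes: 5 *fipr-* genes (fungus-induced protein related), *nlp-34*, *spp-13* and *ins-35*. In *fipr-7* the *glp-4* level was 143 and 113 TPM on day 1 and 0 at both later ages, in all 4 libraries. Its neighbours *fipr-4*, *fipr-6* and *fipr-8* had 21.1 to 39.4 TPM on day 1 and at most 0.878 TPM in any later library. The fifth, *fipr-3*, lies on another chromosome and had 39.7 and 37.8 TPM on day 1, 16 and 17.3 TPM on day 3 and 24 and 29.8 TPM on day 7. The neighbours of the chromosome V run thus were at or near 0 after day 1, and *fipr-3* was not. The reverse course was that of *nlp-34*, a member of a family of epidermal antimicrobial peptides, with 6.71, 4.44 and 6.36 TPM in WT, 14.5, 19.2 and 9.72 TPM in *daf-2*, 295 and 238 TPM on day 1, 807 and 1066 TPM on day 3 and 2153 and 2898 TPM on day 7. It rose from day 3 to day 7 by a log2 difference of 1.13 ± 0.17 (SE, n = 2 and 2, edgeR adjusted p = 0.00016), with no overlap between ages. In *spp-13*, a saposin-like protein gene, and *ins-35*, an insulin-like peptide gene, the *daf-2* levels were above WT without overlap. The values of *spp-13* were 0.346, 0 and 0.0912 TPM in WT and 2.28, 1.35 and 1.23 TPM in *daf-2*, and those of *ins-35* were 0.281, 0.62 and 0.222 TPM in WT and 4.29, 6.22 and 5.97 TPM in *daf-2*. Both were called higher, with log2 differences of 3.26 ± 0.68 and 3.69 ± 0.50 (SE, n = 3 and 3).

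Nematode-specific peptide families gave 7 lines, 3 of *nspa-* and 4 of *nspb-* genes, and every WT library was at 0 counts in all 7. The *nspa-* lines were low on day 1 and abundant on day 3. In *nspa-8* the levels were 40.5 and 22.8 TPM on day 1, 1315 and 1756 TPM on day 3 and 81.7 and 27.8 TPM on day 7, on 6, 4, 159, 203, 6 and 2 counts. It fell from day 3 to day 7 by 5.18 on the log2 scale (SE 0.40, edgeR adjusted p = 2.6e-07). The 2 lines with the symbol *nspa-5* had the same counts in every library, with 13.5 and 11.41 TPM on day 1, 335 and 397 TPM on day 3 and 89.9 and 178 TPM on day 7, and fell by 1.84 (SE 0.43, edgeR adjusted p = 0.0049). Reads of these near-identical copies cannot be assigned to 1 of them. The 4 *nspb-* lines were highest on day 1, at 4.95 to 31.1 TPM, and had at most 1.36 TPM later. Transcripts of 105 bases in the *nspa-* lines give a high TPM to few reads.

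Histone genes are the largest family among the 315, with 39 of the 72 measured *his-* lines. They hold 22 distinct count profiles, because near-identical genes share symbols and counts in the table, so single lines cannot be read as separate measurements. The 39 lines summed to 104 to 114 TPM in WT, 128 to 178 TPM in *daf-2*, 10278 and 7172 TPM on day 1, 6537 and 6279 TPM on day 3 and 19864 and 20555 TPM on day 7. Over all 72 lines, with the 33 that did not meet the rule, the sums were 1788 to 1926, 2387 to 2506, 13416 and 9730, 11473 to 11901 and 36645 to 37200 TPM. Both sums were highest on day 7. Of the 39 lines 21 rose between day 3 and day 7 and 1 fell, or 53.8% and 2.6% against 14.2% and 18.4% of all genes. With lines of the same counts counted once, 34 of the 315 genes rose and 45 fell in place of 43 and 46, and without histone lines 22 rose and 45 fell. By chromosome, all 12 lines on chromosome II, with 5 profiles, rose with a median log2 difference of 1.51, and so did all 4 lines on chromosome IV, with 2 profiles and a median of 1.71. On chromosome V 5 of the 22 lines, with 14 profiles, rose, and the median was 0.43. The single line on X, *his-38*, fell from 113 and 106 TPM to 34.7 and 29.6 TPM (log2 difference -2.08 ± 0.25, edgeR adjusted p = 1.7e-05).

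The 2 lines with the symbol *his-46*, an H4 histone gene pair at chrIV:11326018-11326329 and chrIV:11338522-11338833, show the first kind. Their levels were 7.02, 12.63 and 6.67 TPM in WT, 8.2, 6.96 and 7.19 TPM in *daf-2*, 234 and 176 TPM on day 1, 453 and 402 TPM on day 3 and 1871 and 1803 TPM on day 7. No *glp-4* age overlapped another, and the rise from day 3 to day 7 was 1.80 ± 0.13 on the log2 scale (SE, n = 2 and 2, edgeR adjusted p = 1.8e-07). The *his-9* lines on chromosome II had 169 and 125 TPM on day 1, 154 and 155 TPM on day 3 and 572 and 563 TPM on day 7, a rise of 1.57 ± 0.14 (edgeR adjusted p = 1.5e-06). On chromosome V the course was another one. The *his-49* lines had 432 and 289 TPM on day 1, 83.8 and 75.2 TPM on day 3 and 76.3 and 110 TPM on day 7, with a log2 difference between the later ages of -0.08 ± 0.23 (edgeR adjusted p = 0.84). The highest mean level of a histone line on day 1 was that of *his-18* on chromosome V at 375 TPM, whereas on day 7 every line on II and IV lay above every line on V, as the plot of histone profiles shows. In *daf-2* against WT, 3 of the 17 histone lines that passed the filter were called higher and 1 was called lower. Of all genes 25.5% were called higher and 22.5% lower.

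**Figure D5:**
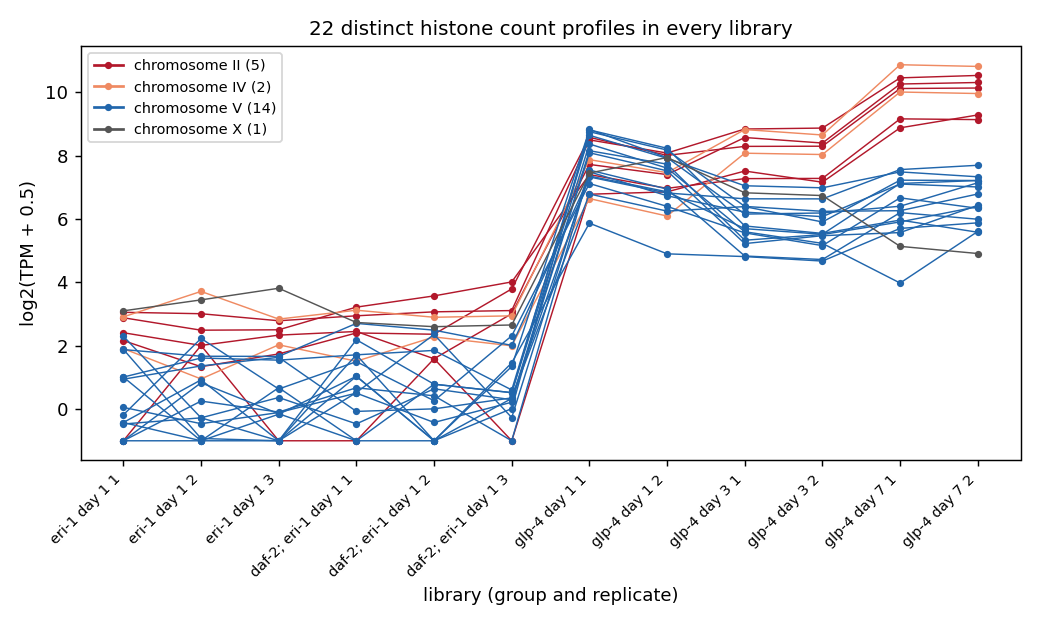
The 22 distinct count profiles of the 39 histone lines, as log2(TPM + 0.5) in each library (x axis), coloured by chromosome. On day 7 the profiles of chromosomes II and IV lie at 547 to 1837 TPM and those of chromosome V at 31.8 to 198 TPM, while all lie under 11 TPM on average in WT.

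Genes of DAF-16, pathogen and stress responses mostly fell at the last step, 7 of the 8 from day 3 to day 7, and none rose, where 18.4% and 14.2% of all genes did. The group was put together with earlier results of these data known. The CUB-like protein genes *dod-21* and *dod-24*, named for lying downstream of the FOXO factor DAF-16, are neighbours on chromosome IV. In *dod-21* the levels were 137 and 91.6 TPM on day 1, 36.7 and 29.7 TPM on day 3 and 1.48 and 1.66 TPM on day 7, a log2 difference of -4.73 ± 0.32 (SE, n = 2 and 2, edgeR adjusted p = 6.6e-08). In *dod-24* they were 306 and 236, then 414 and 487, then 160 and 147 TPM, a log2 difference of -1.90 ± 0.14 (edgeR adjusted p = 1.8e-07). No age overlapped the next in either gene, and *dod-24* was highest on day 3. The gene *cld-1* next to them, chosen after its values were seen, had 144 and 200 counts on day 3 and none in either day 7 library. The transporter genes *pgp-5* and *pgp-6*, whose products pump compounds out of cells, fell by 1.62 (SE 0.15, edgeR adjusted p = 1.6e-06) and 1.60 (SE 0.15, edgeR adjusted p = 1.2e-06), from 68.5 and 56.5 to 26.4 and 25.5 TPM and from 139 and 119.5 to 52.5 and 57 TPM. The 8th gene, *hsp-16.2*, a small heat shock protein, had 62.9 and 71.1 TPM on day 3 and 121.5 and 91.8 TPM on day 7, which edgeR did not call (log2 difference 0.34 ± 0.18, adjusted p = 0.16) but called higher when fitted on those 4 libraries alone. It was the 1 of 15 heat-shock genes that met the rule.

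The metallothionein gene *mtl-1*, a well-known DAF-16 target, and *sdz-24* were the 2 genes of the group called higher in *daf-2* animals. In *mtl-1* the levels were 1.76, 3.57 and 1.63 TPM in WT, 215, 186 and 161 TPM in *daf-2*, 64.4 and 50.4 TPM on day 1, 2258 and 2703 TPM on day 3 and 1877 and 1657 TPM on day 7. The *daf-2* libraries thus lay above both *glp-4* day 1 libraries and below all older ones. The log2 difference between *daf-2* and WT was 6.25 ± 0.24 (SE, n = 3 and 3), and *mtl-1* fell from day 3 to day 7 by 0.80 (SE 0.13, edgeR adjusted p = 0.00025). With library totals the median of all genes moves by 0.51, so a fall of this size is relative to the scaling. The gene *sdz-24*, named for its dependence on SKN-1, had 1.86, 1.37 and 1.6 TPM in WT, 23.5, 19.2 and 15.6 TPM in *daf-2*, 217 and 148 TPM on day 1, 40.8 and 44.8 TPM on day 3 and 10.8 and 15.7 TPM on day 7. Its log2 difference between *daf-2* and WT was 3.48 ± 0.22. Of the others, *dod-24*, *pgp-5* and *pgp-6* were called lower in *daf-2* animals. In *dod-24* the levels were 14.5, 18.1 and 12.1 TPM in WT and 1.89, 2.73 and 1.63 TPM in *daf-2*, a log2 difference of -2.98 ± 0.22, and in *pgp-5* they were 3.04, 2.84 and 3.48 TPM in WT and 0.646, 0.452 and 1.15 TPM in *daf-2*, a log2 difference of -2.22 ± 0.23. Neither pair of groups overlapped. The 6th gene of the group that passed the filter in these libraries, *hsp-16.2*, had 10.6, 3.47 and 3.96 TPM in WT and 58.8, 22.8 and 1.61 TPM in *daf-2*, with overlap and no call.

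Metabolic genes and lipases made up 9 genes. The thioredoxin gene *trx-3*, which is expressed in the intestine, had 5.49, 2.26 and 2.38 TPM in WT, 0.967, 1.12 and 0.935 TPM in *daf-2*, 86.9 and 73.7 TPM on day 1, 8.76 and 10.1 TPM on day 3 and 118 and 89.2 TPM on day 7. In TPM, which carries no TMM scaling, its day 7 libraries lay above both day 1 libraries, with day 3 far below. By edgeR *trx-3* rose by 3.12 ± 0.20 from day 3 to day 7 (SE, n = 2 and 2, edgeR adjusted p = 4.2e-08). The remaining metabolic genes were chosen after their values were seen. The carnitine palmitoyltransferase gene *cpt-4* had 17.7 and 17.5 TPM on day 3 and 51 and 62.4 TPM on day 7 (log2 difference 1.33 ± 0.13, edgeR adjusted p = 2.9e-06). The poly(ADP-ribose) glycohydrolase gene *parg-2* had 24.6 and 26.6 TPM on day 1, 196 and 189 TPM on day 3 and 127 and 147 TPM on day 7, a log2 difference of -0.85 ± 0.11 at the last step (edgeR adjusted p = 3.3e-05). The acyl-CoA synthetase gene *acs-2* had 58.9 and 60.4 TPM on day 1, 15 and 16.6 TPM on day 3 and 36.8 and 20.2 TPM on day 7, which was not called (edgeR adjusted p = 0.093). In all, 2 of the 9 rose and 3 fell, where 14.2% and 18.4% of all genes did. With the filter set on the day 3 and day 7 libraries alone 7 were tested, of which 3 rose and 3 fell. In that fit 20.0% and 22.2% of all genes did.

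Among 19 other named genes, *gfi-1* was the most abundant on day 1. It is the 1 intestinal marker among the 315, and it had 75.2, 66.2 and 75 TPM in WT, 48.9, 44.9 and 33.4 TPM in *daf-2*, 1696 and 1569 TPM on day 1, 247 and 228 TPM on day 3 and 98.4 and 95.5 TPM on day 7. Each group lay apart from the others. It fell by 1.66 (SE 0.11, n = 2 and 2, edgeR adjusted p = 6.9e-08) from day 3 to day 7. The gene *grsp-1*, for a glycine-rich secreted protein, had 77.9 and 69.9 TPM on day 1, 45.6 and 50.6 TPM on day 3 and 7.17 and 6.55 TPM on day 7, a log2 difference of -3.16 ± 0.16 (edgeR adjusted p = 6.4e-09). The smallest of the adjusted p-values in the 315 genes was that of *grsp-1*. The next 3 genes were chosen after their values were seen. The intermediate filament gene *ifp-1* had 1.14 and 1.28 TPM on day 3 and 6.86 and 6.06 TPM on day 7 (log2 difference 2.05 ± 0.20, edgeR adjusted p = 2.7e-06), after 55.6 and 52.9 TPM on day 1. The gene *dao-2* had 481 and 296 TPM on day 1, 95.3 and 91.7 TPM on day 3 and 354 and 430 TPM on day 7 (log2 difference 1.76 ± 0.21, edgeR adjusted p = 1.7e-05), so in TPM it came back to its day 1 range. The giant gene *anc-1*, whose product anchors nuclei, had 11, 11.1 and 11.7 TPM in WT, 10.9, 11.2 and 8.76 TPM in *daf-2* and 264 to 355 TPM in all 6 *glp-4* libraries. In *anc-1* the day 3 and day 7 libraries overlapped in TPM (355 and 277 against 322 and 298), although edgeR called it lower on day 7 (log2 difference -0.39 ± 0.13, adjusted p = 0.033). That is less than the shift of 0.51 that library totals give to all genes. Of these 19 genes 3 rose and 4 fell, or 15.8% and 21.1%, near the 14.2% and 18.4% of all genes. With the filter set on the day 3 and day 7 libraries alone 14 were tested, of which 3 rose and 4 fell. In that fit 20.0% and 22.2% of all genes did.

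The 161 genes without an assigned name held the most abundant transcript of all. *ZK380.6*, an annotated transcript of 81 bases at chrX:1654446-1654526, was at 0 in all 6 WT and *daf-2* libraries. In *glp-4* animals it had 4883 and 3819 TPM on day 1, 6750 and 7117 TPM on day 3 and 18369 and 16314 TPM on day 7, on 1020, 1059, 1413, 1344, 1586 and 1730 counts. No age overlapped another, and the rise from day 3 to day 7 was 0.55 ± 0.10 on the log2 scale (SE, n = 2 and 2, edgeR adjusted p = 0.00093). That is smaller than the TPM ratio, which has no TMM scaling. The TMM factors were 0.87 and 0.92 in the day 3 libraries and 1.28 and 1.27 in the day 7 libraries. *F46A8.7*, with a transcript of 111 bases, had 515 and 562 TPM on day 1, 1558 and 1883 TPM on day 3 and 5524 and 4688 TPM on day 7, and was at 0 in the other 6 libraries (rise of 1.19 ± 0.15, edgeR adjusted p = 3.4e-05). The named gene *ostf-4*, with a transcript of 108 bases, was at 0 in the same 6 libraries and between 797 and 1089 TPM in every *glp-4* library.

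These belong to a set of 44 genes with no count in any WT or *daf-2* library. Their median annotated transcript was 144 bases, 34 of them had transcripts under 300 bases, and 6 had an assigned name. The median of the set was 27.5 counts over both day 1 libraries, so many of their high TPM values rest on few reads. Of the 44, 31 had at least 10 TPM on day 3, 28 on day 7 and 27 at all 3 ages. In all, 68 of the 315 had no count in any WT library. Of the 44, 26 had a count in each of the 6 *glp-4* libraries. Strain, temperature and library set differ together between the 2 sets of libraries and cannot be told apart.

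Among the unnamed genes with the smallest adjusted p in the tested comparison, *F55G11.2* fell from 39.3 and 30.9 TPM on day 3 to 4.96 and 4.12 TPM on day 7 (log2 difference -3.30 ± 0.20, edgeR adjusted p = 2.6e-08). *F28B4.3* fell from 308 and 236 TPM to 78.8 and 62.3 TPM (-2.31 ± 0.15, edgeR adjusted p = 3.5e-08), and *F11D11.3* from 60.3 and 47 TPM to 13 and 11.1 TPM (-2.50 ± 0.17, edgeR adjusted p = 8.5e-08). None of these overlapped between day 3 and day 7, which adds little for genes picked by their adjusted p. *F11D11.3* had 14.2 and 12 TPM on day 1, which overlaps its day 7 levels. *F55G11.4*, chosen after its values were seen, had 157 and 210 TPM on day 1, 2961 and 3410 TPM on day 3 and 1869 and 1754 TPM on day 7, and 3.95 to 6.39 TPM in the WT and *daf-2* libraries (day 7 against day 3 -1.16 ± 0.14, edgeR adjusted p = 1.5e-05). Of the 145 unnamed genes tested, 13 rose and 26 fell, or 8.97% and 17.9% against 14.2% and 18.4% of all genes. Many of the 145 passed the filter through their day 1 counts only. With the filter set on the day 3 and day 7 libraries alone 72 were tested, of which 15 rose and 27 fell. In that fit 20.0% and 22.2% of all genes did, so the comparison with other genes depends on the filter.

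In *daf-2* animals *W02F12.8* stood out among unnamed genes, with no count in WT and 9.4, 17.1 and 10.1 TPM in *daf-2*, on 101 counts in all. Set against a floor of 3 counts over the 3 WT libraries, it was at least 33.6-fold higher. In *F57H12.6* the levels were 2.07, 1.01 and 2.18 TPM in WT and 31.8, 37.3 and 37.8 TPM in *daf-2*, a log2 difference of 4.17 ± 0.19 (SE, n = 3 and 3), while *glp-4* day 1 had 68.9 and 37.6 TPM. In *T26H5.9*, chosen after its values were seen, they were 12.8, 7.06 and 7.16 TPM in WT and 48.4 to 50.8 TPM in *daf-2*, with 180 and 135 TPM on day 1, 1719 and 2016 TPM on day 3 and 2662 and 2505 TPM on day 7. In the other direction *F55G11.2* had 2.53, 2.93 and 1.85 TPM in WT and 0.455, 0.165 and 0.305 TPM in *daf-2*, a log2 difference of -2.99 ± 0.38. The groups did not overlap in any of these 4 genes. All 4 were picked for their values in these data and the share of all genes without overlap was not counted, so nothing is read from this.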

How the data were processed

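Messenger RNA of whole worms was measured in 12 libraries. The authors ran the Cactus pipeline with its worm defaults and deposited estimated counts, already whole numbers and without normalization, and TPM values that sum to 1000000 in each library. The submitters' processing notes name kallisto, edgeR and DiffBind and the builds ce11 and WBcel235, without versions. Groups follow the genotype and age that the labels give. The members were selected from the TPM table. Counts were filtered (filterByExpr, minimum count 10, minimum total 15), TMM-scaled and tested with edgeR 4.0.16 (quasi-likelihood, Benjamini-Hochberg, R 4.3.3), the 6 *glp-4* libraries in 1 model and the 6 *daf-2* and WT libraries in another. Standard errors were derived from the fold change and its F statistic. A level of 3 counts was taken as floor, 0.133 to 0.661 CPM, and covers counting error only. The steps were tested on simulated data. Positions come from Ensembl 115. Alternatives used limma 3.58.1 and DESeq2 1.42.0, and tables were joined with pandas 2.3.3.

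The members and lists were chosen with earlier results of these data known. Genes with values are the 10 highest in level and in ratio, the 10 lowest adjusted p upward and downward at day 7 with a log2 change of at least 1, the 10 highest and 5 lowest *daf-2* ratios, threshold neighbours, and members of lists or of symbol families with 3 or more members. Others are marked as chosen after their values were seen. Statements that groups or ages did not overlap describe single picked genes, and the share of all genes without overlap was not counted. A search of promoters for motifs was not run, and sequences were not used here.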

Additional observations from a re-analysis of the deposited data

How the results depend on the processing

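Of 125 alternative values of the counts of genes, 117 stayed within 1.5 times the reported one. The other 8 were the 70 genes that rose at day 7 with library totals and the 72 with limma on log2(TPM + 0.1), in place of 43, the 22 that rose without histone lines (chosen after seeing the data), the 17 called higher on day 3 with a minimum of 2-fold in place of 30, the 65 called higher in *daf-2* with no filter on low counts in place of 40, the 12 called lower in *daf-2* at an adjusted p under 0.01 in place of 19, and the 512 and 173 genes that an 8-fold or a 32-fold rule selects in place of 315. The first 2 go with the shift of the median of all genes given in the report. The causes of the others were not tested beyond what their construction gives. With 1 library left out, the genes that rose at day 7 numbered 32 to 56 and those that fell 34 to 58, those called on day 3 numbered 23 to 33 higher and 222 to 235 lower, and those called in *daf-2* numbered 34 to 44 higher and 14 to 21 lower. The rule selected 269 genes without *glp-4* day 1 replicate 1, 359 without replicate 2, and 312 to 320 without 1 WT library. Where an age kept 1 library, its spread was taken from the other ages. With the replicate block, 51 rose and 53 fell at day 7, 32 and 229 were called higher and lower on day 3, and 40 and 19 in *daf-2*. Same-numbered libraries did not deviate together (correlations of -0.014 to 0.028). This cannot tell whether they shared a culture or a batch, which the labels do not say. For 15 genes followed singly, none of 225 alternative values lost its call or its direction. These 15 were taken from the lowest adjusted p-values between day 3 and day 7, so weaker calls were not followed in this way. Depth limits most the day 7 values of genes with few counts, where 3 counts equal 0.575 to 0.661 CPM.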
